A study of Mus musculus with 18 samples.

Results

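The conjugating detoxification enzymes described here are 44 of the 18193 genes measured on the arrays. They were chosen by symbol alone: probe sets annotated with 1 gene symbol that names a glutathione S-transferase of the alpha, kappa, mu, omega, pi, theta or zeta class, a microsomal glutathione S-transferase, a UDP-glucuronosyltransferase of family 1 or 2, or a cytosolic sulfotransferase. Where a gene had more than 1 such probe set, the one with the highest mean over the 18 arrays was used, and no measured difference entered the choice. The set held 3 alpha, 7 mu, 2 pi, 4 theta, 2 omega, 1 zeta and 1 kappa transferase, 3 microsomal transferases, 8 UDP-glucuronosyltransferases of family 2, and 13 sulfotransferases, of which 6 belong to family 1 and 7 to families 2 to 6. UDP-glucuronosyltransferase family 1 had 0 members, because its 3 probe sets each carry the symbols of 8 Ugt1a genes.

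RNA came from intestinal crypts of mice aged 2 months, one array per sample, in 4 genotypes. E2f TKO crypts (5 arrays) lost E2f1, E2f2 and E2f3, which encode cell-cycle transcription factors, Myc KO crypts (4 arrays) lost Myc, which encodes a transcription factor of growth, E2f/Myc QKO crypts (5 arrays) lost all of these, and control crypts gave 4 arrays. The deletions used Ah-cre, an inducible Cre that the labels call specific to the intestine and whose promoter, that of Cyp1a1, responds to ligands of the aryl hydrocarbon receptor, and crypts were taken 2 days after ablation of the small intestine's alleles. The sources used here give no strain, sex or inducing agent, and do not say whether control mice carried Ah-cre or received that agent; nothing states that each array came from a separate mouse, so p-values measure the spread between these samples.

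Conjugating enzymes attach a water-soluble group to a reactive or fat-soluble compound, which transporters then export. Glutathione S-transferases add glutathione, UDP-glucuronosyltransferases add glucuronic acid taken from UDP-glucuronate, and sulfotransferases add sulfate taken from the donor PAPS. In the small intestine these enzymes stand between food and blood, they are strongest in absorptive enterocytes, and several are known to be induced through the aryl hydrocarbon receptor or through NRF2, the transcription factor of the electrophile response.

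The values are log2 signals, in which a difference of 1 is a doubling or halving of signal, and no detection calls were used. Of the 44 genes, 30 had a mean signal above that of the median gene (7.24) and 14 did not, and a signal below that level is called dim here, since it is not shown to be above background. The Myc probe set followed its labels, with 7.94 to 8.52 in the 9 arrays of Myc KO and E2f/Myc QKO crypts and 9.69 to 10.66 in the 9 others. Enterocyte markers were high in every array, for example Alpi, intestinal alkaline phosphatase, at 13.24 to 14.10. The arrays labelled E2f TKO 2 and 5 stood apart. Their E2f3 signals of 9.35 and 9.10 lay above all 4 controls (8.62 to 8.96), and their Cyp1a1 signals of 5.05 and 4.91 lay below the 12.66 to 14.09 of the 16 other arrays. The E2f TKO counts of the 44 genes past the adjusted test are therefore given with and without these 2 arrays. So are some single differences that turned or moved much without them. Counts at an unadjusted p and counts of other gene lists are given with them only.

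Promoter windows of 300 bases, from 250 before to 50 after an annotated start, were available from RefSeq (GRCm38.p6) for 40 of the 44 genes. The 5 windows printed belong to 3 transferases whose signal was low together with Cyp1a1 in 2 arrays, to Gstk1, which fell in E2f TKO and E2f/Myc QKO crypts, and to Sult1c2, which had the largest called rise. Capitals mark matches on either strand to the core of the aryl hydrocarbon receptor element (GCGTG) or to that of the antioxidant response element bound by NRF2 (TGACNNNGC), and a window without capitals matched neither. The windows are Gsta2, chr9:78347096-78347395, minus strand; Gsta3, chr1:21240335-21240634, plus strand; Gstm1, chr3:108017769-108018068, minus strand; Gstk1, chr6:42245685-42245984, plus strand; Sult1c2, chr17:53845909-53846208, minus strand.
Gsta2: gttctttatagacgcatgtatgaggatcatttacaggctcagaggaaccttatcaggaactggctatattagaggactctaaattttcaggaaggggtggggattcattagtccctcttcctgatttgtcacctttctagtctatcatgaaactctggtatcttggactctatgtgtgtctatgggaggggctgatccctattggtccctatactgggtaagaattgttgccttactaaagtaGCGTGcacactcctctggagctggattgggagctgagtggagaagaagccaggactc
Gsta3: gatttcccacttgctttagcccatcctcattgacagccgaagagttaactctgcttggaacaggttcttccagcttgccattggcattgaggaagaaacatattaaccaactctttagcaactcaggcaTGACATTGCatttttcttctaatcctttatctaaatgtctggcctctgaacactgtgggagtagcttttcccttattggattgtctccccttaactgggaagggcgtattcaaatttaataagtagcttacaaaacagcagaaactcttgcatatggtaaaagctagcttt
Gstm1: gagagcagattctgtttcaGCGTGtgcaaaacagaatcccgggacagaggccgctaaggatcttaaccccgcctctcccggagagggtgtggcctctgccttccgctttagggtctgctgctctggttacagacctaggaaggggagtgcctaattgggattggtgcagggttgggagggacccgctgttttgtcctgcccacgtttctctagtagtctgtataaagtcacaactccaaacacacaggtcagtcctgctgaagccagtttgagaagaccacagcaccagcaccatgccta
Gstk1: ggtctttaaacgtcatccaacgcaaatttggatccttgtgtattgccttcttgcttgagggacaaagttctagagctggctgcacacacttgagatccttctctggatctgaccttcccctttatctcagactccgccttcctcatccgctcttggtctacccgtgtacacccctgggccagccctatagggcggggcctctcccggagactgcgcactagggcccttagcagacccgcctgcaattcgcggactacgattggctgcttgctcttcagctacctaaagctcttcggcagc
Sult1c2: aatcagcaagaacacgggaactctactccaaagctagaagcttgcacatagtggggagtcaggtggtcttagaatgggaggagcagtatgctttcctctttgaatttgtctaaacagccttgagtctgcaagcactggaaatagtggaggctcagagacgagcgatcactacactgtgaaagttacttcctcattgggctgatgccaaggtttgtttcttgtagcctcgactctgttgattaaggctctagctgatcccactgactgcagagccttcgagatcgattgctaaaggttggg

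Counted from the start, the receptor core lay at -7 in Gsta2 and at -231 in the Gstm1 window printed, and the NRF2 core at -121 in Gsta3. Gstm1 has a second annotated start, chr3:108017924-108018223, whose window holds the receptor core at -76. Both cores are short and occur in many promoters, and a match is no evidence of binding. The windows printed do not stand for all genes that were low in E2f TKO 2 and 5. Gstm2, Gstm6, Gstt1 and Gstt3 also had their lowest values in these 2 arrays, and their windows matched neither core. Gstp1 and Sult1b1 did too, and each had the receptor core in 1 window. GCGTG occurred in 11 of the 52 windows of the 40 genes (21.2%), in 9 genes, and in 32.4% of all 32851 windows. TGACNNNGC occurred in 4 windows (7.69%, in Gsta3, Gstm5, Gstm7 and Mgst1), and in 12.4% of all windows. The E-box bound by MYC, CACGTG, was in 0 of the 52 windows and in 7.15% of all, and the E2F letters TTTCCCGC or TTTGGCGC were in 1 window, that of Gsto2, and in 1.56% of all.

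**Figure D1:**
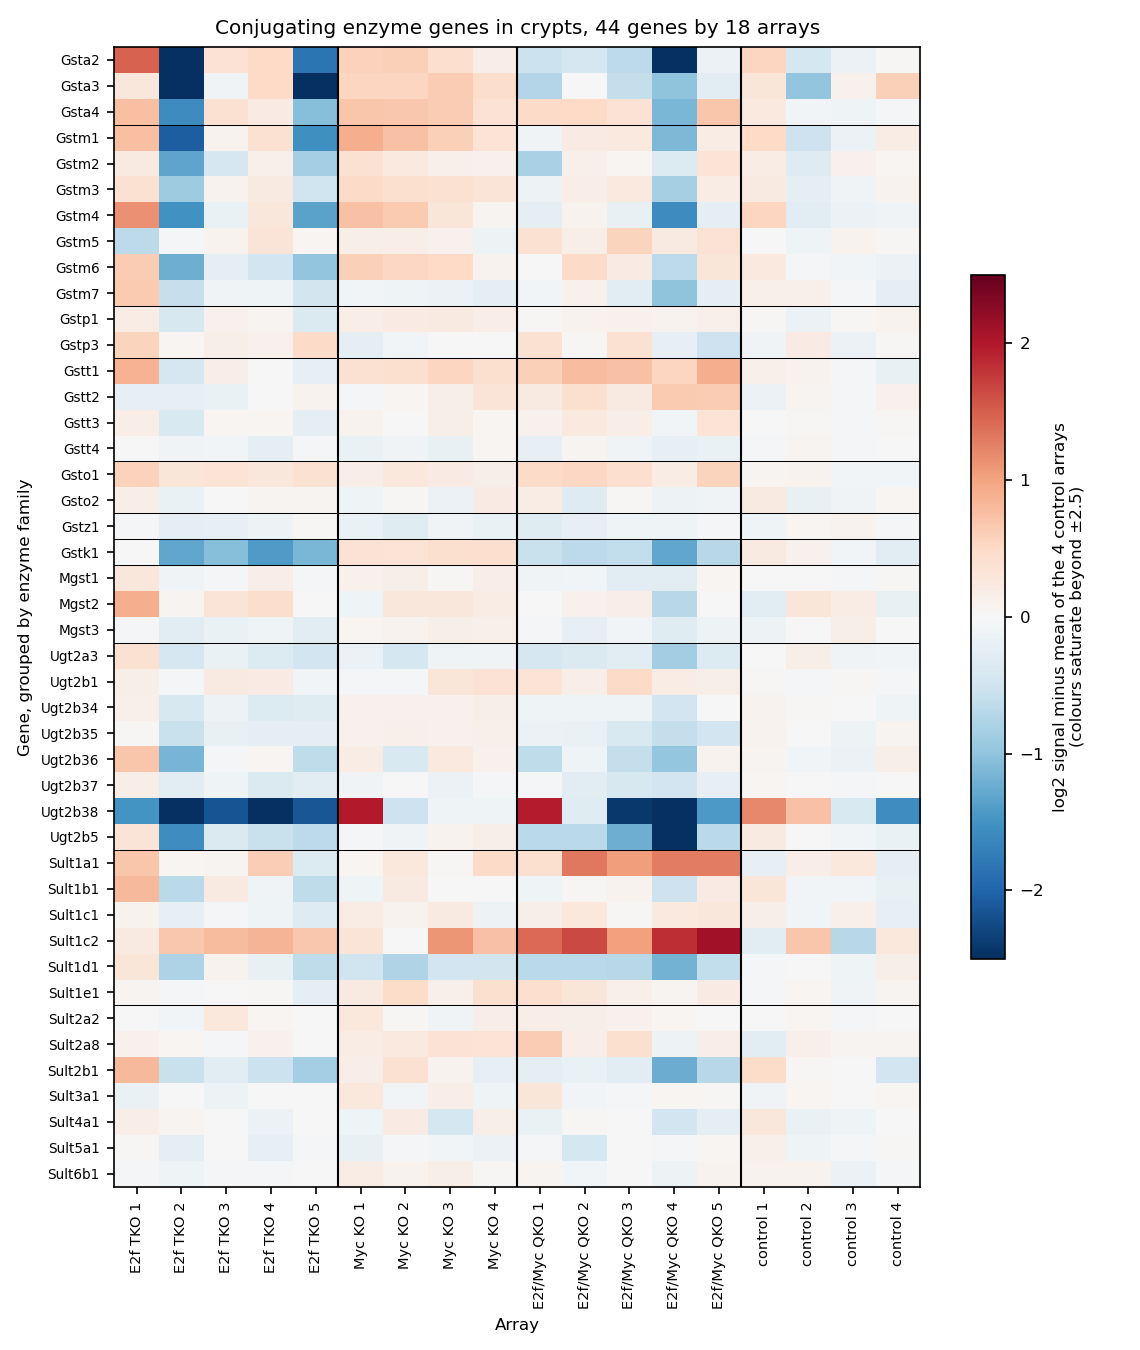
Log2 signal of each of the 44 genes (rows, by enzyme family) in each of the 18 arrays (columns, by genotype) minus the mean of the 4 control arrays, with red higher and blue lower. Gsta2, Gsta4, Gstm1 and Gstm4 are low in E2f TKO 2, E2f TKO 5 and E2f/Myc QKO 4, and Gstk1 is low in 4 of 5 E2f TKO arrays and in all 5 E2f/Myc QKO arrays.

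In E2f TKO crypts, 1 of the 44 genes rose and 1 fell against control (limma adjusted p under 0.05, with Benjamini-Hochberg adjustment over all 18193 genes). Gsto1, an omega transferase, rose, and Gstk1, the transferase of mitochondria and peroxisomes, fell. Over all genes the test called 2.90%, with 1.68% higher and 1.22% lower. The median difference of the 44 genes was -0.10, beside -0.00 over all genes. Of the 44, 32 lay below 0, as did 9350 of all 18193 genes. Without the arrays labelled E2f TKO 2 and 5 the median of the 44 was 0.07, the test called Gsto1 alone, and 7.27% of all genes were called. The E2f TKO difference changed sign in 13 of the 44 genes when these arrays were left out: Gsta2, Gsta3, Gsta4, Gstm1, Gstm3, Gstm4, Gstm7, Gstp1, Gstt3, Sult1b1, Sult1d1, Sult1e1 and Ugt2b36, none of them called in either fit. Some of these differences, such as that of Sult1e1, were near 0 in both fits. The share of all genes that changed sign is not given here. Both calls were lost without control 3; Gsto1 was the 1 gene left without control 1, control 2, E2f TKO 3 or E2f TKO 4, and Gstk1 the 1 gene left without control 4.

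In Myc KO crypts, 0 of the 44 genes passed the limma test against control, where 8.31% of all genes did. At an unadjusted p under 0.05, 6 of the 44 were counted, and 23.8% of all genes. The values of the groups did not overlap in 13 of the 44 genes, beside 22.4% of all genes; 11 of the 13 were higher in Myc KO (10.6% of all genes) and 2 were lower (11.8%). The median difference of the 44 genes was 0.12, and that of all genes was 0.02. Of the 44, 34 lay above 0, as did 9829 of all 18193 genes. Without E2f TKO 2 and 5, which enter this comparison only through the shared estimate of the spread, 3 of the 44 passed beside 10.4% of all genes: Gstp1 (0.19 ± 0.06 SE, limma adjusted p = 0.0487) and Sult1e1 (0.30 ± 0.09, adjusted p = 0.0387) were higher and Sult1d1 (-0.54 ± 0.13, adjusted p = 0.0133) was lower. A fit of the Myc KO and control arrays alone called 7, leaving out E2f TKO 1 gave 3, and leaving out E2f TKO 2, E2f TKO 5, Myc KO 3, E2f/Myc QKO 1 or E2f/Myc QKO 4 gave 1 each.

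In E2f/Myc QKO crypts, 11 of the 44 genes changed against control, 5 upwards and 6 downwards. The sulfotransferases Sult1c2 and Sult1a1, the theta transferases Gstt1 and Gstt2 and the omega transferase Gsto1 rose. The kappa transferase Gstk1, the sulfotransferase Sult1d1 and 4 of the 8 UDP-glucuronosyltransferases fell. These 25.0% of the genes stand beside 26.9% of all genes called, 14.3% higher and 12.6% lower, so the share of changed genes was near the background. The groups did not overlap in 13 of the 44, beside 26.2% of all genes, and the median difference was -0.09, beside 0.03. Without control 1 the count was 7, and without E2f TKO 2 and 5 it was 12, beside 29.8% of all genes, with Ugt2b1 the gene added.

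**Figure D2:**
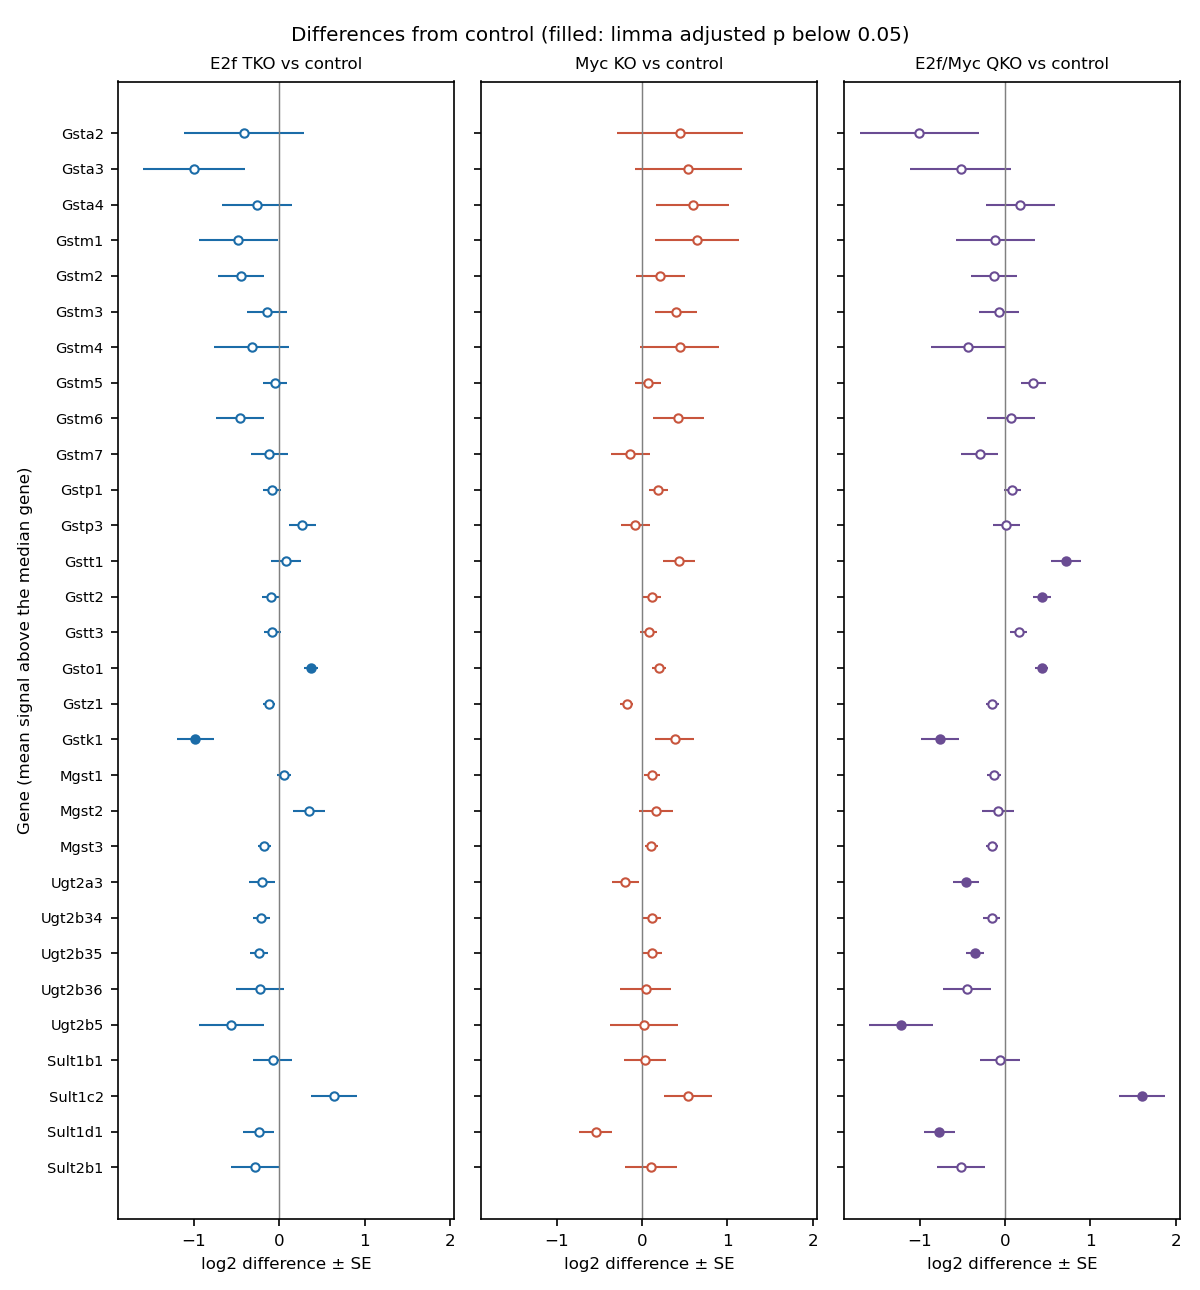
Log2 difference from control (horizontal axis) and its standard error (limma) for the 30 genes whose mean signal lies above that of the median gene (vertical axis), in E2f TKO, in Myc KO and in E2f/Myc QKO crypts. Filled circles passed the test: 2 genes in E2f TKO, 0 in Myc KO and 9 in E2f/Myc QKO crypts, the largest being Sult1c2 at 1.60.

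Gstk1 and Gsto1 were the glutathione S-transferases called against control in both E2f TKO and E2f/Myc QKO crypts. The Gstk1 signal was 11.52, 10.22, 10.45, 10.10 and 10.37 in the 5 E2f TKO arrays, 11.87, 11.85, 11.92 and 11.94 in Myc KO, 10.97, 10.86, 10.90, 10.22 and 10.82 in E2f/Myc QKO, and 11.73, 11.63, 11.45 and 11.25 in control arrays. All 5 E2f/Myc QKO arrays and 4 of 5 E2f TKO arrays lay below every control, E2f TKO 1 lay within the controls, and every Myc KO array lay above them. Among these 4 were E2f TKO 2 and 5, whose E2f3 signals lay above all controls. The difference from control was -0.98 ± 0.22 (SE) in E2f TKO (limma adjusted p = 0.0190), a 1.97-fold lower signal, and -0.76 ± 0.22 in E2f/Myc QKO (adjusted p = 0.0163), 1.69-fold lower. In Myc KO it was 0.38 ± 0.23 (adjusted p = 0.336). Both comparisons share the control arrays. The E2f TKO call was lost in 7 of 29 alternatives, among them leaving out E2f TKO 2 and 5, which gave -0.82 (adjusted p = 0.0584). Between E2f/Myc QKO and Myc KO, which share no array, it was -1.14 ± 0.22 (adjusted p = 0.00364).

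Both theta transferases that rose in E2f/Myc QKO crypts lie in the Gstt cluster, whose 4 measured genes are on chromosome 10. Theta-class enzymes act on small halogenated compounds and peroxides. Gstt1 read 11.13, 11.30, 11.27, 11.06 and 11.45 in E2f/Myc QKO arrays, 11.40, 10.11, 10.69, 10.52 and 10.32 in E2f TKO, 10.91, 10.93, 11.07 and 10.94 in Myc KO, and 10.66, 10.62, 10.49 and 10.35 in control arrays. The E2f/Myc QKO arrays lay above all controls by a difference of 0.71 ± 0.18 (limma adjusted p = 0.00654), as did the Myc KO arrays at 0.43 ± 0.18 (adjusted p = 0.164). Gstt2 read 10.97, 11.15, 10.99, 11.42 and 11.39 in E2f/Myc QKO arrays, 10.56, 10.55, 10.58, 10.77 and 10.85 in E2f TKO, 10.73, 10.80, 10.90 and 11.07 in Myc KO, and 10.61, 10.83, 10.72 and 10.86 in control arrays. Its E2f/Myc QKO arrays lay above every control and every E2f TKO array, with a difference from control of 0.43 ± 0.10 (adjusted p = 0.00610). The other theta genes were not called: Gstt3 differed from control by 0.16 ± 0.10 (adjusted p = 0.252) and Gstt4, a dim probe set, by -0.12 ± 0.07 (adjusted p = 0.221).

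Gsto1, whose product reduces dehydroascorbate and in humans methylated arsenic, had little spread. It read 13.55, 13.28, 13.31, 13.25 and 13.36 in E2f TKO, 13.15, 13.24, 13.18 and 13.13 in Myc KO, 13.46, 13.50, 13.39, 13.16 and 13.54 in E2f/Myc QKO, and 13.04, 13.06, 12.91 and 12.90 in control arrays. Every array of the 3 deleted genotypes lay above every control. Against control the differences came to 0.37 ± 0.08 for E2f TKO (limma adjusted p = 0.0132), 0.19 ± 0.08 in Myc KO (adjusted p = 0.165) and 0.43 ± 0.08 in E2f/Myc QKO (adjusted p = 0.000791). A second Gsto1 probe set gave other directions: 0.51 in E2f TKO (limma adjusted p over all probe sets = 0.0170), but -0.64 in Myc KO (0.00270) and -0.32 in E2f/Myc QKO (0.0443), and the mean of both probe sets differed by 0.06 in E2f/Myc QKO (adjusted p = 0.638). The rise of Gsto1 in E2f TKO crypts was thus seen with both probe sets and that in E2f/Myc QKO crypts with 1 of them.

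Several of the alpha and mu transferases, which are broad-range glutathione-conjugating enzymes, varied widely between the arrays labelled E2f TKO. Of these classes, 0 of the 3 alpha and 0 of the 7 mu genes passed the limma test against control in any genotype. At an unadjusted p under 0.05, the genes counted over all families were 6 of 44 in E2f TKO, beside 14.0% of all genes, and 14 of 44 in E2f/Myc QKO, beside 37.9%. Gsta2, Gsta3, Gsta4, Gstm1 and Gstm4 are described because their values were seen to differ between arrays of a genotype. Gsta2, which also reduces lipid peroxides, read 11.73, 7.67, 10.62, 10.76 and 8.43 in E2f TKO arrays, 10.82, 10.85, 10.68 and 10.43 in Myc KO, 9.72, 9.83, 9.61, 6.98 and 10.11 in E2f/Myc QKO, and 10.80, 9.82, 10.11 and 10.28 in control arrays. The lowest arrays were E2f/Myc QKO 4, E2f TKO 2 and E2f TKO 5, while the other E2f TKO arrays lay within or above the controls. Gsta3, which in mice conjugates the epoxide of aflatoxin, read 7.40 and 7.91 in E2f TKO 2 and 5 and 9.50 to 11.14 in the 16 other arrays. Gstm1, a mu transferase, read 11.17 and 11.68 in those 2 arrays and 12.10 to 14.13 in the others. In Gsta3 and Gstm1 the 2 arrays with little Cyp1a1 were the lowest of all 18. The same held for Gstm2, Gstm6, Gstp1, Gstt1, Gstt3 and Sult1b1, and for the dim Sult1c1 and Ugt2b1. The share of all genes with this pattern is not given here, so it is not shown to be particular to these enzymes.

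Gsta4, which conjugates the lipid peroxidation product 4-hydroxynonenal, read 13.15, 10.83, 12.77, 12.59 and 11.32 in E2f TKO, 13.08, 13.07, 13.03 and 12.75 in Myc KO, 12.88, 12.88, 12.75, 11.26 and 13.08 in E2f/Myc QKO, and 12.63, 12.31, 12.28 and 12.33 in control arrays. All 4 Myc KO arrays, and all E2f/Myc QKO arrays but the fourth, lay above every control. The differences from control were 0.59 ± 0.43 in Myc KO (limma adjusted p = 0.431) and 0.18 ± 0.41 in E2f/Myc QKO (adjusted p = 0.784). Gstm4 was 7.97 and 8.16 in E2f TKO 2 and 5 and 7.92 in E2f/Myc QKO 4, against 9.21 to 10.03 in control arrays. With E2f TKO 2 and 5 left out, the E2f TKO difference from control was 0.79 ± 0.55 for Gsta2, against -0.41 ± 0.70 with them, and 0.23 ± 0.29 for Gsta3, against -1.0 ± 0.60. For Gsta4, Gstm1 and Gstm4 it was 0.44 ± 0.31, 0.41 ± 0.30 and 0.42 ± 0.35. With the 2 arrays it was -0.26, -0.48 and -0.32. Without the 2 arrays the median difference was 0.44 for the alpha and 0.15 for the mu class, against -0.41 and -0.32 with them, and 0 genes of either class passed in either case. Some genes of these classes are close copies of each other, and whether their probe sets read more than 1 of them was not tested.

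**Figure D3:**
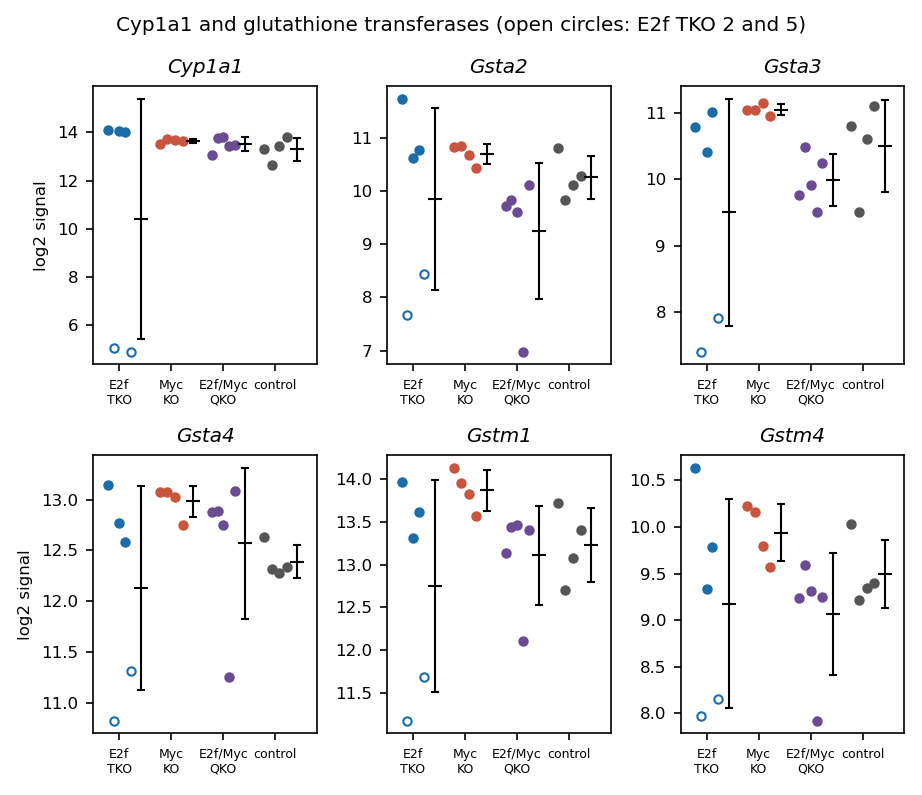
Log2 signal (vertical axes) of Cyp1a1 and of 5 glutathione transferase genes in each array, by genotype; horizontal bars with whiskers are the mean ± SD (n = 5, 4, 5 and 4), and open circles are E2f TKO 2 and 5. Those 2 arrays are low in all 6 panels. E2f/Myc QKO 4 is the lowest of its group for all 5 transferases, by the least for Gsta3 (9.50, next 9.76), while its Cyp1a1 signal is 13.43.

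Several measures moved with these arrays. The mean of 8 genes of the aryl hydrocarbon receptor response was taken as a log2 difference from the control mean. The 8 include Cyp1a1, by which E2f TKO 2 and 5 stood apart, so this mean is not a separate measure. It was -2.29 and -2.25 in E2f TKO 2 and 5 and 0.81 to 0.89 in the 3 other E2f TKO arrays. Control 2, the lowest control, stood at -0.67. Nqo1, a quinone reductase of both the receptor and the NRF2 response, read 9.49 and 9.78 in those 2 arrays and 10.44 to 11.53 in the others. The mean of 16 enterocyte markers was -0.36 and -0.55 there, -1.12 in E2f/Myc QKO 4, 0.96 in E2f TKO 1 and -0.26 to 0.29 in the controls. Of the 30 genes of higher signal, E2f TKO 2 held the lowest value for 12 (40.0%, against 7.67% of all genes of such signal), E2f/Myc QKO 4 for 11 (36.7% against 11.3%), and E2f TKO 1 the highest for 15 (50% against 15.2%). The part of the receptor response or of enterocyte content in these levels was not tested. In bulk crypts, fewer cells of a type and less RNA per cell cannot be told apart.

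The other transferases of glutathione were not called against control. Gstp1, the pi transferase, differed from control by -0.08 in E2f TKO, 0.19 in Myc KO and 0.09 in E2f/Myc QKO crypts, and Gstz1, which isomerises maleylacetoacetate in tyrosine breakdown, by -0.12, -0.18 and -0.15, none past the test. Without E2f TKO 2 and 5 the E2f TKO difference of Gstp1 was 0.12 ± 0.06 (limma adjusted p = 0.310). The microsomal transferases Mgst1, Mgst2, which can make leukotriene C4, and Mgst3 differed from control by -0.17 to 0.35 over the 3 genotypes, also without a call. The highest of these, Mgst2 in E2f TKO, was 0.56 ± 0.20 without E2f TKO 2 and 5 (limma adjusted p = 0.114). A second, dim Mgst3 probe set gave -0.56 in E2f/Myc QKO crypts (limma adjusted p over all probe sets = 0.00988), where the one used gave -0.15. Mgst3 was lower in E2f/Myc QKO than in Myc KO crypts, with a difference of -0.26 ± 0.07 (limma adjusted p = 0.0365), a call lost in 10 of 29 alternatives.

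UDP-glucuronosyltransferases of family 2, which glucuronidate steroids, bile acids and drugs and all lie on chromosome 5, were called only downwards in E2f/Myc QKO crypts: 4 of 8 fell against control (12.6% of all genes did), 0 rose, and the median difference was -0.40. Without E2f/Myc QKO 4, 2 of the 8 fell and the median was -0.30; without E2f TKO 2 and 5, 4 fell and 1, the dim Ugt2b1, rose. Ugt2b5 read 10.94, 10.93, 10.39, 8.77 and 10.95 in E2f/Myc QKO arrays, 11.94, 10.06, 11.25, 11.05 and 10.96 in E2f TKO, 11.58, 11.53, 11.70 and 11.76 in Myc KO, and 11.83, 11.63, 11.55 and 11.44 in control arrays. The E2f/Myc QKO arrays all lay below the controls, with a difference of -1.22 ± 0.38 (limma adjusted p = 0.0236), and of -0.81 ± 0.26 without E2f/Myc QKO 4 (adjusted p = 0.0297). Without control 1 or control 2 the call was lost, at adjusted p of 0.0570 and 0.0522. Ugt2b35 read 11.48, 11.48, 11.25, 11.04 and 11.16 in E2f/Myc QKO arrays, 11.67, 11.07, 11.45, 11.40 and 11.39 in E2f TKO, 11.75, 11.76, 11.74 and 11.76 in Myc KO, and 11.71, 11.62, 11.51 and 11.69 in control arrays. Again every E2f/Myc QKO array was below every control, with a difference of -0.36 ± 0.11 (adjusted p = 0.0189), a call lost under quantile normalization and without control 1 or control 4 (adjusted p up to 0.0962).

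Ugt2a3, which glucuronidates bile acids in humans, read 10.33, 10.39, 10.47, 9.88 and 10.41 in E2f/Myc QKO arrays, 11.14, 10.34, 10.58, 10.41 and 10.28 in E2f TKO, 10.60, 10.32, 10.64 and 10.66 in Myc KO, and 10.75, 10.91, 10.67 and 10.69 in control arrays. Both Myc-deleted genotypes lay wholly below control. The difference was -0.46 ± 0.15 in E2f/Myc QKO (limma adjusted p = 0.0337) and -0.20 ± 0.16 in Myc KO (adjusted p = 0.486), and the call was lost in 7 of 29 alternatives, among them leaving out any 1 control, E2f/Myc QKO 1 or E2f/Myc QKO 4 (adjusted p of 0.0818 without the last). Ugt2b37, a dim probe set, read 3.76, 3.53, 3.41, 3.34 and 3.60 in E2f/Myc QKO arrays, 3.97, 3.52, 3.70, 3.44 and 3.53 in E2f TKO, 3.72, 3.82, 3.66 and 3.78 in Myc KO, and 3.86, 3.8, 3.78 and 3.8 in control arrays. Its E2f/Myc QKO arrays lay below every control by a narrow margin at a level not shown to be above background. It differed by -0.28 ± 0.10 (adjusted p = 0.0418) and lost its call in 10 of 28 alternatives. Ugt2b34 and Ugt2b36 were not called in E2f/Myc QKO crypts, at -0.16 ± 0.10 (adjusted p = 0.265) and -0.45 ± 0.28 (adjusted p = 0.262).

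Ugt2b38 showed the widest spread of the family, around a mean signal below that of the median gene. Its values were 5.56, 4.16, 4.89, 4.45 and 4.91 in E2f TKO, 9.03, 6.53, 6.95 and 6.95 in Myc KO, 9.0, 6.75, 4.64, 4.34 and 5.62 in E2f/Myc QKO, and 8.25, 7.78, 6.68 and 5.49 in control arrays. Of the 5 E2f TKO arrays 4 lay below every control, at signals not shown to be above background, and the arrays of each other group spread over more than 2 log2 units. The E2f TKO difference was -2.26 ± 0.78 (limma adjusted p = 0.166).

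The sulfotransferases of family 1 changed in both directions in E2f/Myc QKO crypts. Sult1c2, a phenol sulfotransferase, gave the largest difference of the 11 called genes. It read 9.70, 9.94, 9.32, 10.13 and 10.39 in E2f/Myc QKO arrays, 8.52, 8.97, 9.09, 9.14 and 8.98 in E2f TKO, 8.63, 8.28, 9.41 and 9.02 in Myc KO, and 8.04, 9.0, 7.59 and 8.56 in control arrays. All E2f/Myc QKO arrays lay above all E2f TKO and control arrays, by 1.60 ± 0.27 over control (limma adjusted p = 0.000383), a 3.03-fold higher signal, while Myc KO 3 reached into the E2f/Myc QKO range. For the single deletions the difference was 0.64 ± 0.27 for E2f TKO (adjusted p = 0.276) and 0.54 ± 0.28 for Myc KO (adjusted p = 0.261).

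Sult1a1, the general phenol sulfotransferase, read 6.56, 7.48, 7.21, 7.45 and 7.45 in E2f/Myc QKO arrays, 6.86, 6.22, 6.24, 6.79 and 5.83 in E2f TKO, 6.21, 6.43, 6.19 and 6.64 in Myc KO, and 5.96, 6.33, 6.42 and 5.95 in control arrays. The E2f/Myc QKO arrays were above every control, by 1.06 ± 0.21 (limma adjusted p = 0.00141), from a signal below that of the median gene. Sult1d1, which in mice sulfates catecholamines, went the other way: 11.61, 11.62, 11.60, 11.11 and 11.67 in E2f/Myc QKO arrays, 12.60, 11.51, 12.38, 12.10 and 11.65 in E2f TKO, 11.80, 11.54, 11.81 and 11.82 in Myc KO, and 12.25, 12.29, 12.18 and 12.44 in control arrays. All arrays of both Myc-deleted genotypes lay below all controls. The difference was -0.77 ± 0.18 in E2f/Myc QKO (adjusted p = 0.00441) and -0.54 ± 0.19 in Myc KO (adjusted p = 0.0831), and a second Sult1d1 probe set gave -0.76 in E2f/Myc QKO.

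The other sulfotransferases were not called against control. Sult1b1, which sulfates phenols and thyroid hormones, differed by -0.08, 0.04 and -0.06 in E2f TKO, in Myc KO and in E2f/Myc QKO crypts, and in E2f TKO by 0.31 ± 0.19 without E2f TKO 2 and 5 (limma adjusted p = 0.390). Sult1e1, the estrogen sulfotransferase, was dim, at 3.35 to 4.05 in all arrays. Of families 2 to 6, Sult2b1, which sulfates cholesterol and pregnenolone, was the 1 gene of 7 with a mean signal above the median gene, and differed from control by -0.28 ± 0.29 in E2f TKO, 0.10 ± 0.30 in Myc KO and -0.52 ± 0.29 in E2f/Myc QKO (limma adjusted p = 0.197). Its E2f TKO difference was -0.00 ± 0.31 without E2f TKO 2 and 5.

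**Figure D4:**
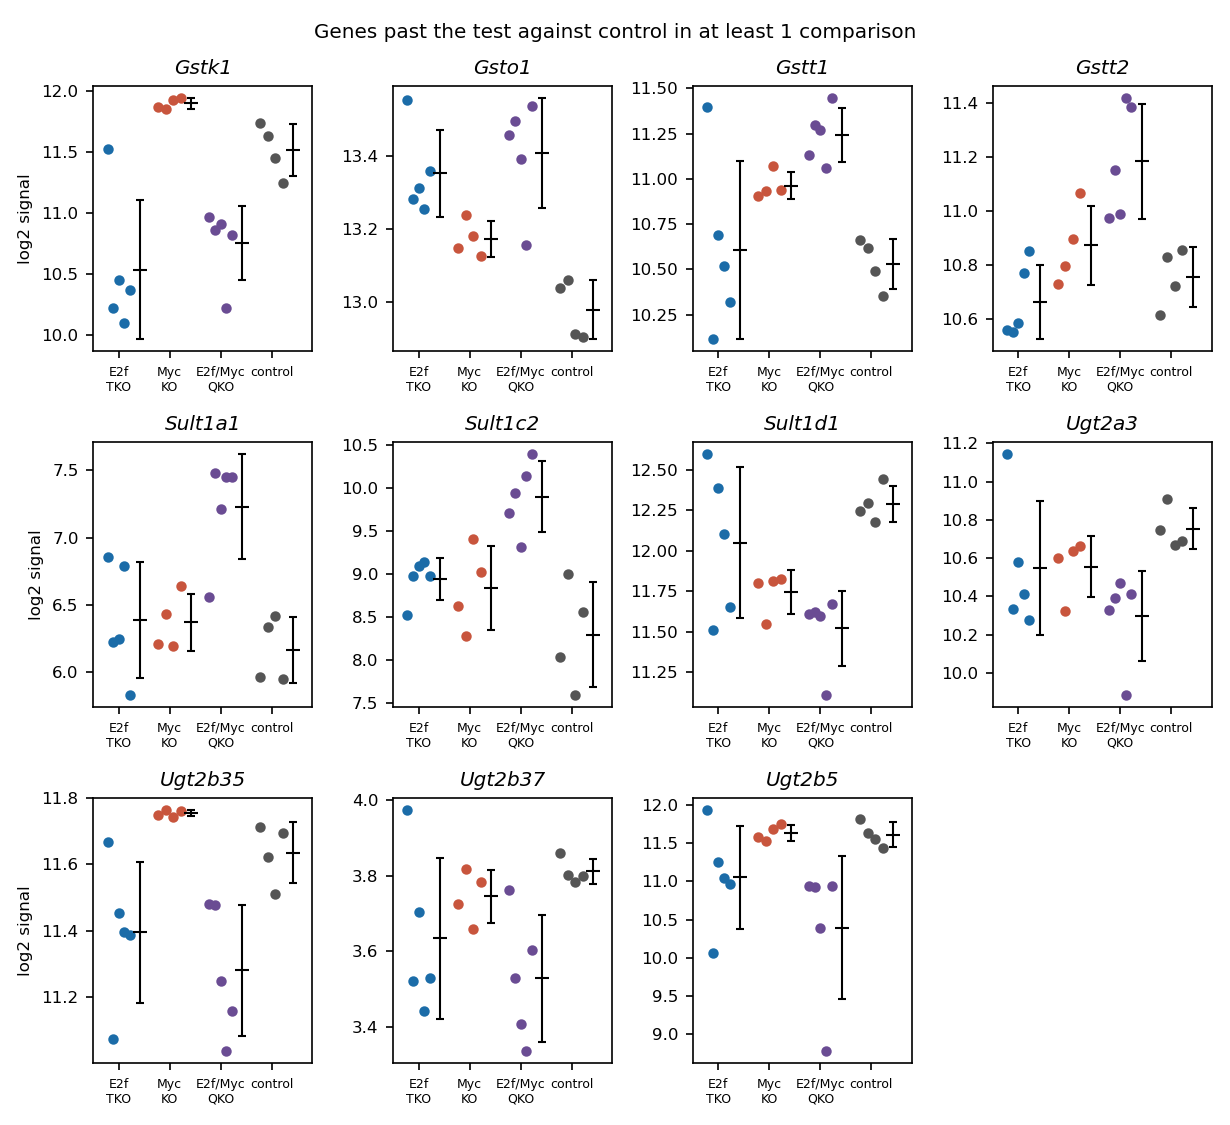
Log2 signal (vertical axes) of the 11 genes that passed the test against control in at least 1 genotype, in each array, by genotype, with the mean ± SD (n = 5, 4, 5 and 4). Sult1c2, Sult1a1, Gstt1, Gstt2 and Gsto1 are higher in every E2f/Myc QKO array than in every control array, and the other 6 genes are lower.

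E2f/Myc QKO crypts were also set against each single deletion. Against E2f TKO, 7 of the 44 genes were called, beside 17.0% of all genes: Gstt1, Gstt2, Sult1a1, Sult1c1, Sult1c2 and Sult1e1 were higher (9.09% of all genes) and Sult1d1 was lower (7.95%). Sult1c2 was higher by 0.96 ± 0.25 (limma adjusted p = 0.0163) and Gstt2 by 0.52 ± 0.10 (adjusted p = 0.00216). Without E2f TKO 2 and 5 the genes called were 4, beside 11.8% of all genes: Gstt2 was higher, and Sult1d1, Gsta2 (-1.79 ± 0.52, adjusted p = 0.0369) and Mgst2 (-0.64 ± 0.19, adjusted p = 0.0425) were lower, while Sult1c2 had an adjusted p of 0.0511. Without E2f/Myc QKO 2 the count was also 4. Sult1d1 lost its call in 10 of 29 alternatives, and the dim genes Sult1c1 and Sult1e1 lost theirs in 7 and 10 of 28, whereas Gstt2 kept its call in all 29.

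Against Myc KO, 5 of the 44 were called, beside 7.68% of all genes: Sult1a1 (0.86 ± 0.21, limma adjusted p = 0.0179) and Sult1c2 (1.06 ± 0.27, adjusted p = 0.0213) were higher, beside 4.60%, and Gstk1, Mgst3 and Ugt2b35 (-0.47 ± 0.11, adjusted p = 0.00961) were lower, beside 3.09%. The groups were apart in 10 genes, all lower in E2f/Myc QKO, beside 6.51% of all genes: Gsta2, Gsta3, Gstk1, Gstm1, Gstm3, Gstp1, Mgst3, Ugt2b34, Ugt2b35 and Ugt2b5. Gsta3, for example, read 9.76, 10.49, 9.91, 9.50 and 10.24 in E2f/Myc QKO and 11.05, 11.04, 11.14 and 10.94 in Myc KO arrays. Its difference of -1.06 ± 0.60 had an adjusted p of 0.337, and of 0.0160 in the fit without E2f TKO 2 and 5, where the count was 7, beside 9.75%. The count was 9 without E2f TKO 1, 2 without Myc KO 1, and 3 without Myc KO 2 or without Myc KO 3. Quantile normalization gave 4 higher and 3 lower.

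The interaction, the E2f/Myc QKO difference from control less the differences of both single deletions, asks whether the joint deletion departs from the sum of the 2 single ones on the log2 scale. By limma it was past the threshold in 0 of the 44 genes and in 0.0550% of all genes (10 genes), and at an unadjusted p under 0.05 in 4 of the 44 and 6.34% of all genes. All alternative fits gave 0 as well. For Sult1c2 it was 0.42 ± 0.38 and for Gstk1 -0.16 ± 0.31; without E2f TKO 2 and 5 it was 0.44 ± 0.43 and -0.32 ± 0.33.

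Genes that supply or control the conjugating enzymes are given from lists chosen by function, some of which share genes. Of 7 measured genes of glutathione supply, 0 passed against control in E2f TKO or Myc KO, and 1 rose and 1 fell in E2f/Myc QKO. Of all genes, 2.90% were called in E2f TKO and 8.31% in Myc KO, and in E2f/Myc QKO 14.3% rose and 12.6% fell. Gclc, the catalytic subunit of the enzyme that limits glutathione synthesis, read 10.09, 10.15, 10.19, 9.69 and 10.20 in E2f/Myc QKO and 11.42, 11.37, 11.52 and 11.19 in Myc KO arrays, with no overlap and a difference of -1.31 ± 0.25 (limma adjusted p = 0.00317). Gsr, which recycles oxidised glutathione, was lower in the same comparison, at -0.84 ± 0.17 (adjusted p = 0.00439). Of 12 genes of the NRF2 response, 6 were lower and 1 was higher in E2f/Myc QKO than in Myc KO, where 3.09% of all genes were lower and 4.60% higher, and the median was -0.49, beside 0.01 over all genes. Against control, 2 rose and 4 fell in E2f/Myc QKO, where 14.3% of all genes rose and 12.6% fell: Hmox1, heme oxygenase, was at 0.50 ± 0.11 and Keap1, which holds NRF2 in check, at -0.30 ± 0.06. In Myc KO 1 rose, Srxn1, sulfiredoxin (0.83 ± 0.23, adjusted p = 0.0321).

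For sulfation, Bpnt1, which breaks down the by-product of PAPS use, fell in E2f/Myc QKO, with a difference of -0.78 ± 0.15 (limma adjusted p = 0.00114) and the sulfate transporter Slc26a2 rose by 0.97 ± 0.33 (adjusted p = 0.0384); the other 4 genes of PAPS supply were not called. Of 4 genes of UDP-glucuronate supply and removal, 0 were called against control in E2f TKO or E2f/Myc QKO. In Myc KO 1 of them was lower than in control, beside 4.72% of all genes. In E2f/Myc QKO 1 was lower than in E2f TKO, beside 7.95%. Ugdh, which makes UDP-glucuronate, was at -0.50 ± 0.23 in E2f/Myc QKO against control (adjusted p = 0.124). Of 11 other conjugating enzymes, Tst, which detoxifies cyanide with sulfur, fell, with differences of -0.98 ± 0.15 in Myc KO (adjusted p = 0.00140) and -1.0 ± 0.15 in E2f/Myc QKO (adjusted p = 0.000114). Nat1, an N-acetyltransferase of low signal, rose by 0.40 and 0.39 in the same genotypes, and Tpmt, thiopurine methyltransferase, rose by 0.59 ± 0.16 in E2f/Myc QKO (adjusted p = 0.00983). In E2f/Myc QKO 14.3% of all genes rose and 12.6% fell, and in Myc KO 3.59% rose and 4.72% fell.

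Of 10 receptors and factors that control such genes, 0 changed against control in the single deletions. Over all genes the test called 2.90% in E2f TKO and 8.31% in Myc KO. In E2f/Myc QKO 3 of the 10 fell, beside 12.6% of all genes. They were Rxra, the retinoid X receptor, at -0.37 ± 0.10 (limma adjusted p = 0.00872), Arnt, the partner of the aryl hydrocarbon receptor, at -0.28 ± 0.07 (adjusted p = 0.0101), and Nfe2l2, which encodes NRF2, at -0.39 ± 0.11 (adjusted p = 0.0169). Of 8 efflux transporters, Abcc1, an exporter of glutathione conjugates, rose in E2f/Myc QKO by 0.51 ± 0.17 (adjusted p = 0.0395). Of 19 phase I oxidases and esterases, 2 rose and 2 fell in E2f/Myc QKO and 0 in the single deletions. The transporter and oxidase counts in E2f/Myc QKO stand beside 14.3% of all genes that rose there and 12.6% that fell.

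Markers of cell types moved with genotype as well. Of 16 enterocyte markers 0 passed in any comparison, with a median of -0.10 in E2f/Myc QKO, whereas 7 of 10 enteroendocrine and 7 of 7 tuft cell markers rose there, with medians of 0.78 and 0.66, beside 14.3% of all genes. Of the other lists, 3 of 5 hepatocyte (median 0.39), 2 of 6 stem cell (0.32), 2 of 5 smooth muscle (0.16), 1 of 9 goblet (0.16), 1 of 8 T cell (0.27) and 1 of 7 fibroblast markers (0.09) rose in E2f/Myc QKO. T cell markers had a median of 0.62 in Myc KO, with 0 of 8 called. Enteroendocrine markers also rose in E2f TKO (3 of 10, beside 1.68% of all genes). In Myc KO 2 of 10 enteroendocrine and 1 of 7 tuft cell markers rose, beside 3.59%. The mean enteroendocrine level, as a log2 difference from the control mean, was 0.44 to 0.50 in E2f TKO, 0.17 to 0.53 in Myc KO, 0.53 to 1.01 in E2f/Myc QKO and -0.23 to 0.14 in control arrays. The tuft cell level was -0.01 to 0.41 in E2f TKO, 0.23 to 0.36 in Myc KO, 0.45 to 0.87 in E2f/Myc QKO and -0.04 to 0.09 in control arrays. On the same scale, the 3 measured pancreas acinar markers averaged 4.58 in control 1 and -1.61 to -1.48 in the 3 other controls. The control mean they are set against includes control 1 and is raised by it. Their part in the differences of the conjugating enzymes was not tested.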

How the data were processed

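Biotin-labelled total RNA from crypts was measured on 18 arrays, 1 per sample, per the labels. The authors deposited 1 log2 value per probe set and array (2.29 to 14.81). That scale is read from the values themselves, and the sources used here name neither normalization nor probe summary. Array medians were 6.14 to 6.26, pairs of arrays correlated at 0.970 to 0.996, and 0 pairs were identical, so values were used as deposited. Of 45101 probe sets, 34945 had 1 gene symbol in the platform annotation and gave 18193 genes, each by its probe set of highest mean. Arrays were grouped by their titles.

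One fit of 4 group means to all 18 arrays was made with limma 3.58.1 (lmFit, contrasts.fit, eBayes; R 4.3.3), two-sided, for 6 comparisons, with Benjamini-Hochberg adjustment over 18193 genes and a threshold of 0.05. It was tested on simulated data. The number of arrays limits the precision. Alternative fits changed the normalization (quantile), the genes (a mean above the median gene), the probe sets (averaged per gene, or without those marked as shared), the arrays (compared groups alone, single arrays left out, E2f TKO 2 and 5 left out), the variance model (trended robust, array weights) or the covariates (replicate number, Xist). Leaving out E2f TKO 2 and 5 with E2f/Myc QKO 4 was chosen after seeing the data. Members and lists were chosen with earlier results of these data known. All arrays are given for members past the test against control or in the interaction whose adjusted p is among the 12 smallest of that comparison, and up to 4 genes per list are named by smallest p. The alpha and mu transferases, Ugt2b38, members named without a call, and other list genes were named after their values were seen. Whether probe sets also read related transcripts was not tested. Motifs were searched in both strands of promoter windows. Python 3.11.15 with pandas 2.3.3 and matplotlib 3.10.9 made tables and figures.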

Additional observations from a re-analysis of the deposited data

Results flagged for a closer look

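Arrays were compared within each group of 4 or 5 for 16 of the genes described, 64 groups in all, and 15 values lay apart from the rest of their group by Dixon's criterion. Chance meets it in about 1 of 20 groups, but this rate does not apply here: 5 of the genes (Gsta2, Gsta3, Gsta4, Gstm1 and Gstm4), which hold 6 of the 15 values, were chosen because their arrays were seen to differ, and all genes share arrays. The values are a description.

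E2f/Myc QKO 4 was the lowest of its group for 8 of these values: Gstk1 at 10.22, Sult1d1 at 11.11, Ugt2a3 at 9.88, Ugt2b5 at 8.77, Gsta2 at 6.98, Gsta4 at 11.26, Gstm1 at 12.10 and Gstm4 at 7.92. In the same array the mean of the enterocyte markers was -1.12 relative to the control mean, the lowest of the 18 arrays, and its part in these values was not tested. E2f TKO 1 was the highest of its group for Gstk1, at 11.52, and the lowest for Sult1c2, at 8.52. E2f/Myc QKO 1 was the lowest for Sult1a1, at 6.56. In Myc KO arrays, Gstt1 stood out at 11.07 in Myc KO 3, Sult1d1 at 11.54 in Myc KO 2 and Gsta4 at 12.75 in Myc KO 4. Control 1, in which pancreas acinar markers were high, was the highest control for Gsta4, at 12.63.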

How the results depend on the processing

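Of the differences against control in E2f/Myc QKO crypts, those of Gstk1, Gstt1, Gstt2, Sult1a1, Sult1c2 and Sult1d1 stayed past the threshold in every alternative run (27 to 29 each), and no called difference changed sign. The number of the 44 genes called varied. For E2f TKO against control it was 0 when only those groups were fitted, 1 without E2f TKO 2 and 5, and 0 to 2 when single arrays were left out. For Myc KO against control it was 1 with probe sets averaged per gene, 7 with the groups alone, 1 with a trended robust variance, 5 with array weights, 3 without E2f TKO 2 and 5, 5 without these and E2f/Myc QKO 4, and 0 to 3 when single arrays were left out. Leaving out single arrays gave 7 to 12 for E2f/Myc QKO against control, 4 to 9 against E2f TKO and 2 to 9 against Myc KO. Against E2f TKO the count was 4 with the groups alone, 4 without E2f TKO 2 and 5, and 4 without these and E2f/Myc QKO 4; against Myc KO it was 9 with array weights. Some of these fits used fewer arrays, and the cause of the shifts was not tested.

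Over all genes, the count for E2f TKO against control was 527, against 253 with the groups alone, 1356 with array weights, 1322 without E2f TKO 2 and 5, 1405 without these and E2f/Myc QKO 4, and 277 to 830 when single arrays were left out. For Myc KO against control it was 1511, against 2681 with the groups alone, 3427 with array weights, and 640 to 2227 without single arrays. For E2f/Myc QKO it was 3100 against E2f TKO, but 1549 with the groups alone and 1797 without the 3 arrays, and 1398 against Myc KO, but 2265 with array weights and 918 to 2008 without single arrays. For the interaction it was 10, and 6 with only genes above the median level.

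With the replicate number as a block, 3 of the 44 were called in E2f TKO, 1 in Myc KO and 13 in E2f/Myc QKO crypts against control, and the call of Mgst3 between E2f/Myc QKO and Myc KO was lost (adjusted p = 0.0621). Arrays of the same number correlated at -0.16 to 0.35 in their deviations from group means, with a median of 0.15 and 13 of 25 pairs over 0.1. Arrays of different numbers correlated at -0.62 to 0.43, with a median of -0.04 and 27 of 96 pairs over 0.1. Of 18 arrays, 8 correlated best with one of their own number. The labels state no pairing or batch, so the main fit took none, and whether arrays of a number share one was not tested. A signal near the median gene is not told apart from background, which limits Sult1a1, Ugt2b37, Ugt2b38, Sult1c1 and Sult1e1.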

Other observations

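Probe sets with several symbols entered no comparison, and their values are given without a gene of their own. The 3 probe sets shared by the Ugt1a genes, which glucuronidate bilirubin and phenols, averaged 14.23, 13.73 and 13.59 in E2f TKO, 14.39, 14.17 and 13.94 in Myc KO, 14.32, 13.96 and 13.71 in E2f/Myc QKO, and 14.28, 13.84 and 13.73 in control arrays. In each of the 3, E2f TKO 2 and 5 gave the lowest of the 18 values, and the 4 Myc KO arrays lay above the 4 controls. The probe set shared by Gsta1, Gsta2 and Gm3776 read 12.26 in E2f/Myc QKO 4, 12.68 in E2f TKO 2 and 13.29 in E2f TKO 5, against 13.91 to 14.16 in control arrays.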
